A study of Mus musculus with 9 samples.

Results

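The 39 genes described here encode the antioxidant and glutathione system. They were taken by symbol from a list of Nrf2 and its inhibitor Keap1, glutathione synthesis, the thioredoxin system, superoxide dismutases and catalase, glutathione peroxidases, peroxiredoxins, glutathione transferases and metallothioneins, and all 39 were found among the 19698 genes with a named probe. Each gene was read at its brightest probe, out of 52 probes for the 39 genes. The values came from 9 single-channel Agilent arrays of lung RNA from male C57BL/6 mice without any transgene or deletion in the labels. Of these arrays, 4 were titled control and 5 irradiated, the latter from left lungs that had received a single dose. The mice are given as 10 weeks old, and their age when the lungs were taken is not known for these arrays. The mice were anesthetized with Zoletil and Rompun for irradiation, in a protocol that the labels give for all arrays. RNA was pooled before labeling, and nothing states which mice lie behind an array, so the p-values measure the spread between these arrays. The labels give neither dose, lung region nor time after irradiation, the study used more than a single dose and region, and the irradiated arrays may differ in all of these.

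Glutathione is a small thiol made from cysteine, glutamate and glycine. Peroxidases use it to remove peroxides, transferases attach it to reactive compounds, and glutathione reductase regenerates it. The thioredoxin system with the peroxiredoxins forms a parallel route, and superoxide dismutases and catalase remove superoxide and hydrogen peroxide directly. Many of these genes are targets of the transcription factor Nrf2 (gene symbol Nfe2l2), which binds antioxidant response elements and is held back by Keap1. Metallothioneins bind zinc and copper through their cysteines and are induced through metal response elements by the factor Mtf1. In the lung, glutathione transferases and other detoxifying enzymes are abundant in club cells of the airways.

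Promoters of Mt1, Mt2 and Txnrd1, 3 of the genes whose arrays did not overlap between the groups, are shown because they hold elements of these pathways. RefSeq sequences of the 250 bases before the transcript start (mouse build GRCm38.p6) were at hand for 33 of the 39 genes. The metal response element was searched as TGCACNC or TGCGCNC and the antioxidant response element as TGACNNNGC, on both strands, and the letters of the latter can take in the AP-1 motif TGACTCA. Capitals mark metal response elements in the promoters of Mt1 (chr8:94178839-94179088, plus strand) and Mt2 (chr8:94172368-94172617, plus strand) and the antioxidant response element in 1 of the 3 promoters of Txnrd1 (chr10:82858956-82859205, plus strand), all written 5′ to 3′.
Mt1: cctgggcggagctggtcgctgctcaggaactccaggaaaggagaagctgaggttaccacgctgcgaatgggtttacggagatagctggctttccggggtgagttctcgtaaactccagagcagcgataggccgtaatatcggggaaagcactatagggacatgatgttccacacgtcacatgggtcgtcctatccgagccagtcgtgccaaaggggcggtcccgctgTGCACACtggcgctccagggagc
Mt2: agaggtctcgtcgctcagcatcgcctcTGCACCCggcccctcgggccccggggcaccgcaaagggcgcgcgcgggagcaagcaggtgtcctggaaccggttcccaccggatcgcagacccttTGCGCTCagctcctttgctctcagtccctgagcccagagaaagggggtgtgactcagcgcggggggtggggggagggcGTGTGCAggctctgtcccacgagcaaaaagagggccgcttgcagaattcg
Txnrd1: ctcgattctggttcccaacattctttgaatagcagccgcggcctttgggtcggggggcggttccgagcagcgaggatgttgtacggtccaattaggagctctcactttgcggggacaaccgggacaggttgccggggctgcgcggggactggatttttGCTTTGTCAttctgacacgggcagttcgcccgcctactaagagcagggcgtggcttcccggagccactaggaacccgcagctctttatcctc
The Mt1 promoter held 1 such metal element, which ended 16 bases before the start, and the Mt2 promoter held 3. At least 3 matches were present in 1.26% of all 32851 mouse promoters of this length. The Mt2 promoter also held 1 antioxidant element, which overlapped none of the 3 and contains TGACTCA. In Txnrd1 the antioxidant element ended 83 bases before the start, on the minus strand. The metal element was present in 9 of the 33 members (27.3%), against 23.8% of all genes, and the antioxidant element in 8 of 33 (24.2%), against 11.5% of all genes. The 8 members were Nfe2l2, Gclm, Sod1, Prdx1, Txnrd1, Gsta3, Mgst1 and Mt2. Srxn1 and Gstm1 had a metal element and no antioxidant element, and Gstm2, Slc7a11 and Cat had neither in this window. A match of letters is a description of the sequence, and none of these arrays measured binding.

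Each array had 72.8% to 89.1% of its spots well above background and none saturated, and precision is limited by how few arrays there are. All 39 members exceeded 1.4 times the local background on all 9 arrays. By the stricter flag of the Feature Extraction output, 38 were well above background on all 9 arrays. Slc7a11 had this flag on 3 of 4 control and 4 of 5 irradiated arrays. Genes called above background here and below are those with this flag. Irradiated array 1 stood apart in its tissue content, with a mean of 9 cardiac muscle markers at -5.52 on the log2 scale relative to the control mean, against -0.46 to 0.42 on irradiated arrays 2 to 5. Control array 3 stood apart with a mean of 10 skeletal muscle markers at 4.16, against -1.69 to -1.06 on the other control arrays. All 8 type II cell markers were above background on all 9 arrays. So were all measured T cell, B cell, ciliated cell and endothelial markers, so this does not identify the tissue. In tissue RNA, fewer cells of a type and less RNA per cell cannot be told apart.

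Between the groups, 24 members were higher in irradiated lung and 15 were lower, a share of 61.5% higher against 51.9% of all genes. The median log2 difference of the members, irradiated minus control, was 0.058, and that of all genes was 0.0085. Only Mt2 passed an adjusted p of 0.05 (limma with Benjamini-Hochberg adjustment over all probes), which is 1 of 39 members or 2.56%, against 0.416% of all genes and 0.333% of all probes. This fit has no block. With array pairs inferred from the scan image as a block, set out below, 7 members passed, against 3.84% of all genes. With these pairs as a random block, 11 members passed, against 9.45% of all genes. An unadjusted p under 0.05 was reached by 7 members that were higher and 4 that were lower, or 17.9% and 10.3%, against 7.37% and 4.98% of all genes. In 6 members the groups did not overlap, or 15.4% against 5.14% of all genes: Mt1, Mt2, Srxn1 and Txnrd1 were above all control arrays on every irradiated array, and Gstm1 and Gstm2 were below them. In the deposited normalized table this held for 2 members, Mt1 and Mt2, and not for Srxn1, Txnrd1, Gstm1 or Gstm2. The share over all genes was not taken in that table, so whether 2 of 39 exceeds it is unknown. In the main processing, the share over all genes was 3.39% for the higher and 1.75% for the lower direction.

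**Figure D1:**
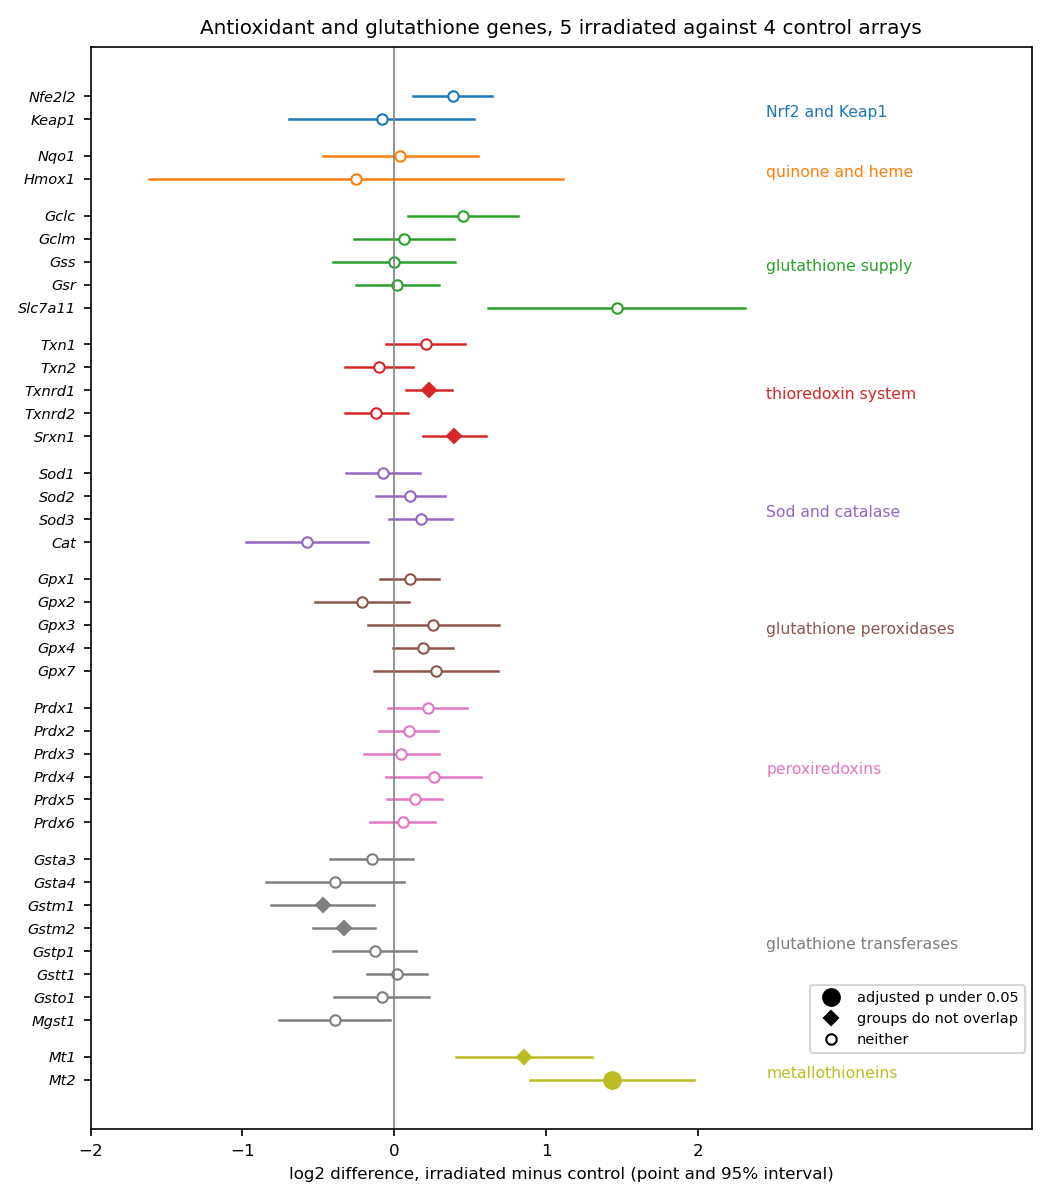
Log2 difference, irradiated minus control, of each of the 39 members (point) with its 95% interval from limma (line), 5 irradiated against 4 control arrays, colored by role. The large filled circle is Mt2, the single member past an adjusted p of 0.05, whose groups also did not overlap. Filled diamonds are the other 5 members without overlap, and open circles are the rest. Metallothioneins lie to the right and most glutathione transferases to the left of 0.

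The metallothioneins Mt1 and Mt2, which lie beside each other on chromosome 8, had the smallest adjusted p of all members. Mt2 had log2 intensities of 14.50, 14.58, 14.54 and 14.09 on control arrays 1 to 4 and 15.06, 15.90, 16.37, 15.75 and 16.23 on irradiated arrays 1 to 5. Every irradiated array was above every control array, with irradiated array 1 the lowest of its group. Irradiated minus control, Mt2 differed by 1.43 on the log2 scale (SE 0.24, 95% interval 0.90 to 1.97), a 2.70-fold rise with a limma adjusted p of 0.0457. This call was lost without any one of the other 8 arrays, at adjusted p between 0.0938 and 0.159, and it was kept without irradiated array 1 (adjusted p = 0.00768). It was also lost without the intensity trend in the variance (0.0837) and with the replicate number as a block (0.266). The log2 difference itself stayed between 1.31 and 1.63 with 1 array left out.

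For Mt1 the log2 intensities were 15.50, 15.92, 16.01 and 15.56 on the control arrays and 16.07, 16.36, 17.09, 16.75 and 16.74 on the irradiated arrays. The groups did not overlap, although irradiated array 1 was close to control array 3. Mt1 differed by a log2 of 0.85 (SE 0.20, 95% interval 0.41 to 1.30), or 1.81-fold, with an adjusted p of 0.135, and without irradiated array 1 it was 0.99 with an adjusted p of 0.0343. Since the transcripts of Mt1 and Mt2 are similar, how far each probe reads the other gene is uncertain. The brain metallothionein Mt3 (log2 difference 0.17) and the zinc sensor Mtf1 (0.15) had adjusted p of 0.828 and 0.822.

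**Figure D2:**
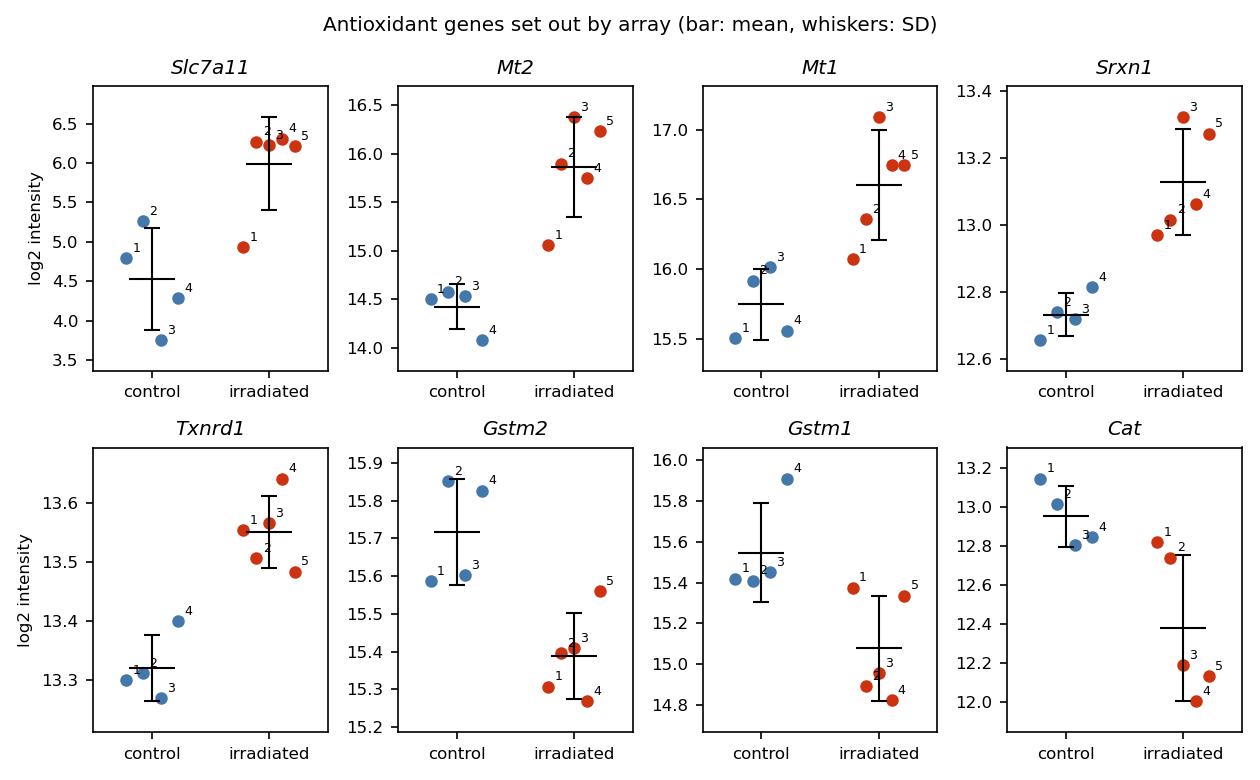
Log2 intensity (quantile normalized, vertical axis, not starting at 0) of the 8 members set out by array, in 4 control (blue) and 5 irradiated arrays (red), with the array number beside each point, the group mean as a bar and the SD as whiskers. Irradiated array 1 lies nearest to the control arrays for Mt1, Mt2, Srxn1 and Slc7a11, at 4.94 against 6.21 to 6.31 on the other irradiated arrays for Slc7a11.

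Glutathione supply was covered by 5 members, and 4 of them were higher and 1 was lower, with a median of 0.06. Slc7a11, the cystine importer that feeds glutathione synthesis, had log2 intensities of 4.80, 5.27, 3.76 and 4.28 on the control arrays and 4.94, 6.27, 6.23, 6.31 and 6.21 on the irradiated arrays. Irradiated arrays 2 to 5 lay close together above all controls, and irradiated array 1 lay among the controls. Its log2 difference was 1.46 (SE 0.38, 95% interval 0.62 to 2.31), or 2.76-fold, with an adjusted p of 0.174. Without irradiated array 1 it was 1.73 (adjusted p = 0.0394). The probe was dim and not flagged well above background on every array, so the fold is approximate. The size of the difference depended on the processing, at 0.57 with normexp and 0.75 in the deposited table. Gclc, the catalytic subunit of the enzyme that sets the rate of glutathione synthesis, ranged from 14.53 to 15.11 in the controls and from 14.74 to 15.46 in the irradiated arrays, with a log2 difference of 0.45 (adjusted p = 0.348). The 3 remaining genes differed by less than their errors: the regulatory subunit Gclm by 0.06 (SE 0.15), glutathione synthetase Gss by -0.0020 (SE 0.18) and glutathione reductase Gsr by 0.02 (SE 0.12).

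Of the pair that controls the pathway, Nfe2l2 ranged from 14.05 to 14.34 in the controls and from 14.29 to 14.79 after irradiation. The groups overlapped only through irradiated array 2, and the log2 difference was 0.39 (SE 0.12) with an adjusted p of 0.250. Keap1 differed by -0.08 (SE 0.27). The classical Nrf2 targets Nqo1, a quinone reductase, and Hmox1, the heme oxygenase that degrades heme, had log2 differences of 0.04 (SE 0.23) and -0.25 (SE 0.61). Hmox1 was split among the controls, at 10.69 and 10.90 on control arrays 1 and 3 and 8.26 and 8.27 on control arrays 2 and 4, and a second Hmox1 probe differed by 0.0081 (SE 0.26).

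In the thioredoxin system, 3 of 5 members were higher and 2 were lower, with a median of 0.21, and Txnrd1 and Srxn1 stood above the controls on every irradiated array. Sulfiredoxin Srxn1, which repairs overoxidized peroxiredoxins, was at 12.66, 12.74, 12.72 and 12.82 on the control arrays and at 12.97, 13.02, 13.32, 13.06 and 13.27 on the irradiated arrays. The groups did not overlap, and irradiated arrays 3 and 5 were farthest from the controls. Srxn1 differed by a log2 of 0.40 (SE 0.09, 95% interval 0.19 to 0.60), or 1.32-fold, with an adjusted p of 0.138.

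Cytosolic thioredoxin reductase Txnrd1 was at 13.30, 13.31, 13.27 and 13.40 in the controls and at 13.55, 13.51, 13.57, 13.64 and 13.48 after irradiation. Both groups were tight, with an SD of 0.06 each. The difference on the log2 scale was 0.23 (SE 0.07, 95% interval 0.08 to 0.38), or 1.17-fold, with an adjusted p of 0.242. Cytosolic thioredoxin Txn1, whose value was the median of the thioredoxin system, differed by 0.21 (SE 0.12). With 1 array left out, the Txn1 difference ranged from 0.08 to 0.26. Their mitochondrial counterparts Txn2 and Txnrd2 differed by -0.10 (SE 0.10) and -0.12 (SE 0.09), and the difference between cytosolic and mitochondrial members was not tested.

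The peroxiredoxins, most of which reduce peroxides with electrons from thioredoxin, were higher in irradiated lung for all 6 members. The differences were 0.05 to 0.26, with a median of 0.11. Scaling to the 75th percentile put Prdx6 at -0.019, and a dimmer Prdx6 probe was at -0.0053 (SE 0.17). None of the 6 had an unadjusted p under 0.05 at its brightest probe. A second Prdx1 probe gave 0.35 (unadjusted p = 0.0103, adjusted p = 0.276) against 0.22 at the brightest. Relative to the control mean, the mean of the 6 genes was -0.05 to 0.05 in the controls and 0.06 to 0.21 after irradiation. The sign of Prdx3, at 0.05, also turned under other alternatives. Of the glutathione peroxidases, Gpx1, Gpx3, Gpx4 and Gpx7 were higher by 0.10 to 0.28 and the epithelial Gpx2 was lower, at -0.21 (SE 0.14). With 1 array left out, the ranges were 0.02 to 0.14 for Gpx1, 0.12 to 0.40 for Gpx3, 0.12 to 0.23 for Gpx4 and 0.16 to 0.40 for Gpx7. Gpx2 ranged from -0.33 to -0.13. The smallest unadjusted p among them was 0.057, for Gpx4, which protects membrane lipids.

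Catalase, Cat, which splits hydrogen peroxide, had log2 intensities of 13.15, 13.01, 12.80 and 12.85 on the control arrays and 12.82, 12.74, 12.19, 12.01 and 12.13 on the irradiated arrays. Irradiated arrays 3 to 5 were well below all controls, while array 1 was above control array 3. Cat had a log2 difference of -0.57 (SE 0.18, 95% interval -0.98 to -0.17), or 0.672-fold, with an adjusted p of 0.270, and a second Cat probe gave -0.58 (SE 0.31). Superoxide dismutases differed less: cytosolic Sod1 by -0.08 (SE 0.11), mitochondrial Sod2 by 0.11 (SE 0.10) and extracellular Sod3 by 0.17 (SE 0.09). Markers of several cell types were lower, as Cat was. These included all 5 measured red cell, 5 neutrophil, 9 cardiac and 10 skeletal muscle markers. Their medians were -0.68, -0.45, -1.08 and -1.40, and none of these genes passed the adjusted p. Markers of fat, and the club cell markers described below, were lower as well. All 6 adipose markers were lower in irradiated lung, 5 of the 6 were above background on all 9 arrays, and their mean relative to the control mean was -0.42 to 0.25 on the control arrays and -2.98, -0.19, -1.27, -2.42 and -3.16 on irradiated arrays 1 to 5. On the same arrays Cat was at -0.13, -0.21, -0.76, -0.95 and -0.82, so irradiated array 1 was nearest to the controls for Cat but not for fat. None of the 6 adipose markers passed the adjusted threshold, and 5 were lower at an unadjusted p under 0.05, against 4.98% of all genes. The part of any of these cell types in the catalase values was not tested.

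Most glutathione transferases were lower in irradiated lung. Of the 8 members 7 were lower, with a median of -0.24, and the exception Gstt1 was also lower with normexp or the deposited table. Gsto1 turned the other way with the scan pair block, at 0.013. A second Gstp1 probe was higher, at 0.06 (SE 0.15), against -0.13 at the brightest. Of the 8, 3 were lower at an unadjusted p under 0.05 (37.5%, against 4.98% of all genes), and none passed the adjusted p. Gstm2, a mu class enzyme, was at 15.59, 15.85, 15.60 and 15.83 in the controls and at 15.31, 15.40, 15.41, 15.27 and 15.56 after irradiation. All irradiated arrays were below all control arrays, irradiated array 5 by the smallest margin. Gstm2 differed by a log2 of -0.33 (SE 0.09, 95% interval -0.53 to -0.13), or 0.796-fold, with an adjusted p of 0.206, and its other 2 probes gave -0.35 and -0.31.

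For Gstm1, of the same class, the values were 15.42, 15.41, 15.45 and 15.91 in the controls and 15.37, 14.89, 14.96, 14.82 and 15.34 after irradiation. The groups did not overlap, but irradiated arrays 1 and 5 were just below control arrays 1 to 3, and with normexp, with 75th percentile scaling or in the deposited table they did overlap. Gstm1 had a log2 difference of -0.47 (SE 0.15, 95% interval -0.81 to -0.13), or 0.721-fold, with an adjusted p of 0.292, and a second probe gave -0.50. Microsomal Mgst1 and Gsta4, which conjugates lipid aldehydes, each differed by -0.39, with adjusted p of 0.448 and 0.587. Gsta3 (-0.15), Gstp1 (-0.13), Gsto1 (-0.08) and Gstt1 (0.02) had adjusted p of 0.790 or more. The mu class genes are so similar in sequence that their probes may read more than a single transcript, and the values of the class are uncertain as separate measurements.

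Club cell markers were also lower in irradiated lung. All 6 of the 6 measured markers were above background on all 9 arrays and lower in irradiated lung, with a median of -0.45. None of these markers passed the adjusted p, and 3 were lower at an unadjusted p under 0.05, against 4.98% of all genes. Their mean was -0.11 to 0.15 on the control arrays and -1.81, -0.74, -0.57, -0.65 and -0.48 on irradiated arrays 1 to 5. The mean of the 8 transferases was -0.15 to 0.16 on the control arrays and -0.12, -0.43, -0.28, -0.33 and -0.05 on irradiated arrays 1 to 5. All 5 irradiated arrays were below the control range for the club cell markers, array 1 by the most, whereas irradiated arrays 1 and 5 were within it for the transferases. Secretoglobin Scgb1a1, the main club cell product, differed by -0.03 (SE 0.07). Of 6 ciliated cell markers, all above background on all 9 arrays, 5 were lower and 1 was higher, with a median of -0.24 and none at an unadjusted p under 0.05. Their mean was -0.33 to 0.32 in the controls and -0.23, -0.45, -0.07, -0.22 and 0.03 on irradiated arrays 1 to 5, so that the groups overlapped. The part of club and ciliated cells in the transferase values was not tested.

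**Figure D3:**
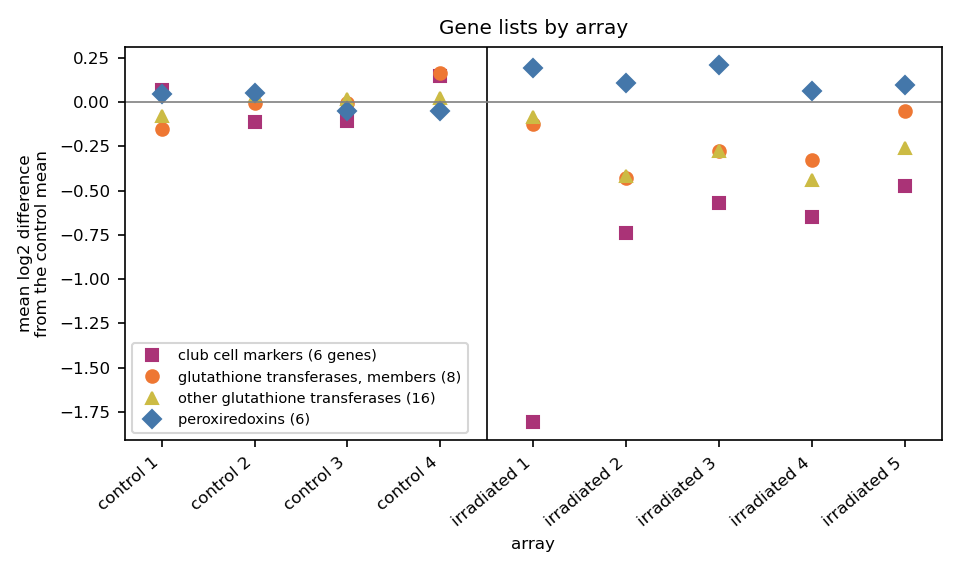
Mean log2 difference from the control mean (vertical axis) on each of the 9 arrays for the 6 club cell markers (squares), the 8 glutathione transferases among the members (circles), 16 other glutathione transferases (triangles) and the 6 peroxiredoxins (diamonds). Club cell markers are at -1.81 on irradiated array 1 and between -0.74 and -0.48 on the others, and the peroxiredoxins are between 0.06 and 0.21 on all irradiated arrays.

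Most macrophage markers were higher along with the metallothioneins and Slc7a11. Of 11 measured markers, all above background on all 9 arrays, 9 were higher in irradiated lung, against 51.9% of all genes. The 2 lower ones were Marco (-0.63) and Siglecf (-0.47). The 11 markers had a median of 0.68. Of them, 5 were higher at an unadjusted p under 0.05, against 7.37% of all genes, and none passed the adjusted p. Their mean was -0.25 to 0.49 on the control arrays and 0.18, 0.53, 0.53, 0.47 and 0.42 on irradiated arrays 1 to 5. Irradiated array 1 was the lowest of its group for these markers as it was for Slc7a11, Mt1, Mt2 and Srxn1. Control array 1, at 0.49, was above irradiated arrays 1, 4 and 5 for the markers, while it was the lowest control for Mt1 and Srxn1. All 4 measured markers of type I alveolar cells, above background on all 9 arrays, were higher as well, with a median of 0.32. Of these 4 markers, 2 were higher at an unadjusted p under 0.05, against 7.37% of all genes, and none passed the adjusted p. Their mean was -0.13 to 0.10 in the controls and 0.39, 0.16, 0.34, 0.23 and 0.42 on irradiated arrays 1 to 5, without overlap. The part of macrophages and type I cells in these values was not tested.

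The arrays also fell into 4 pairs by the position of their spots on the scan image, which started on the same line and lay an array width apart. The pairs were inferred from these positions, and no source used here states that paired arrays share a slide or a run. Each pair held 1 control and 1 irradiated array, control arrays 1 to 4 with irradiated arrays 2 to 5 in that order, and irradiated array 1 was in none. Over all probes, the deviations of each control array from its group mean correlated best with those of its partner. Within pairs, 16 members were higher in irradiated lung in 4 of 4 pairs (41.0%, against 17.9% of all genes) and 10 were lower in 4 of 4 (25.6%, against 17.4%). Mt2 differed by 1.395, 1.79, 1.21 and 2.14, Mt1 by 0.85, 1.17, 0.73 and 1.18 and Slc7a11 by 1.47, 0.96, 2.55 and 1.92 in the 4 pairs. Cat differed by -0.41, -0.82, -0.80 and -0.71. Gstm1 was the most even of the 8 genes set out by array, at -0.53, -0.45, -0.63 and -0.57. Srxn1 was at 0.36, 0.58, 0.34 and 0.46, Txnrd1 at 0.21, 0.25, 0.37 and 0.08, and Gstm2 at -0.19, -0.44, -0.33 and -0.27. The direction within pairs was fixed for these 8 genes, since irradiated arrays 2 to 5 lay wholly on one side of all control arrays.

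**Figure D4:**
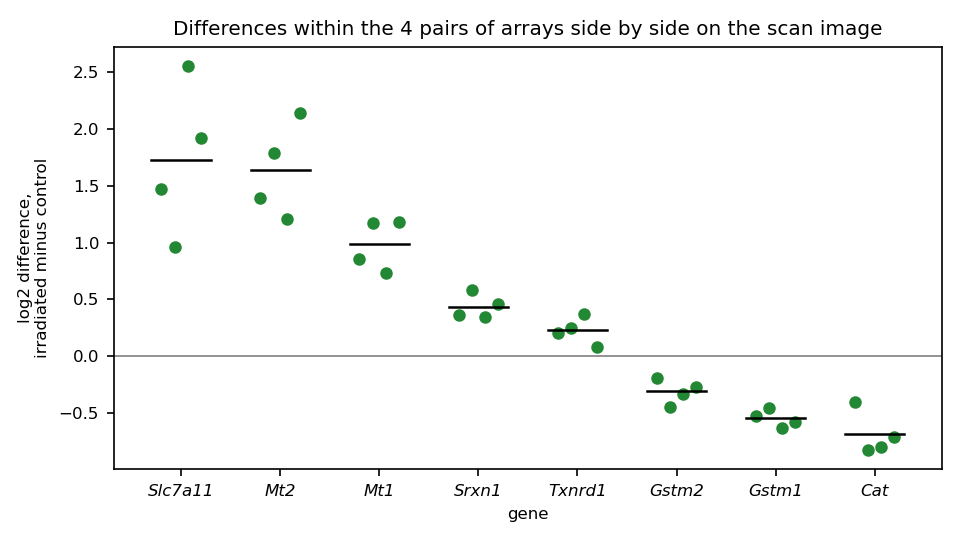
Log2 difference, irradiated minus control, within each of the 4 pairs of arrays that lie side by side on the scan image (points), with their mean (bar), for the 8 members set out by array. All points of Slc7a11, Mt2, Mt1, Srxn1 and Txnrd1 are above 0, and all points of Gstm2, Gstm1 and Cat are below 0, with Gstm1 between -0.63 and -0.45.

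With the pair as a block, which leaves out irradiated array 1 as it has no partner, 7 members passed the adjusted p, against 3.84% of all genes: Gclc (adjusted p = 0.0477), Slc7a11 (0.0492), Srxn1 (0.0401), Mt1 (0.0269) and Mt2 (0.0271) were higher, and Cat (0.0350) and Gstm1 (0.0258) were lower. With the pair as a random block and all 9 arrays, 11 members passed, against 9.45% of all genes, the further 4 being Nfe2l2, Txnrd1, Gstm2 and Mgst1. These are the same 11 members that had an unadjusted p under 0.05 without a block. Without irradiated array 1 and with no block, Slc7a11, Mt1 and Mt2 passed. In that fit 476 of 39303 probes passed, against 131 with all 9 arrays. Since the block of 4 pairs also drops that array, the pairing and the missing array cannot be told apart there for Slc7a11 and Mt1.

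**Figure D5:**
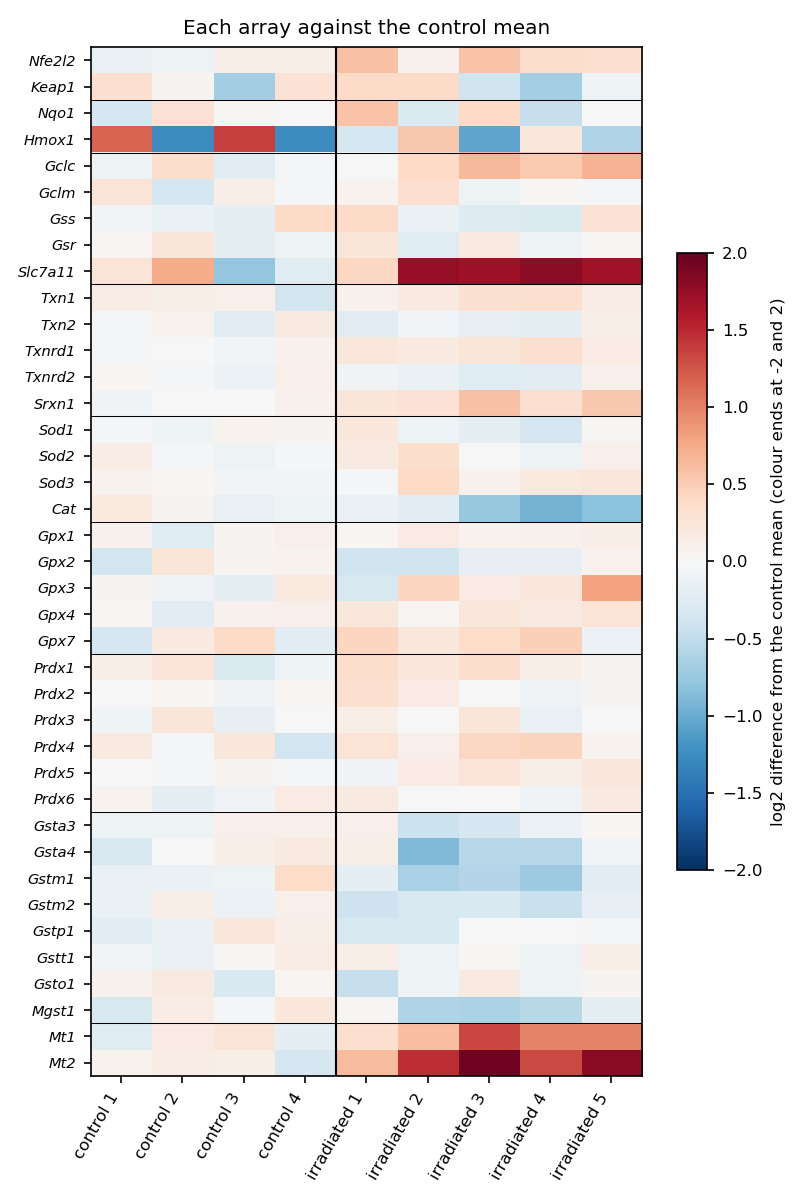
Log2 difference of each member (vertical) on each of the 9 arrays (horizontal) from the mean of the 4 control arrays, red for higher and blue for lower, with lines between the roles. Colors end at -2 and 2. Mt1, Mt2 and Slc7a11 are red on irradiated arrays 2 to 5, and Hmox1 varies among the control arrays from 8.26 to 10.90 in log2 intensity.

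Beyond the members, 113 further genes of the same pathways were measured. None passed the adjusted p (limma), 24 had an unadjusted p under 0.05, of which 11 were higher and 13 were lower (9.73% and 11.5%, against 7.37% and 4.98% of all genes), and their median log2 difference was 0.01. Of the 16 other glutathione transferases, 13 were lower and 3 were higher, with a median of -0.32 and 6 at an unadjusted p under 0.05, all lower. The alpha class enzyme Gsta2 was at 11.17, 11.72, 12.25 and 11.34 in the controls and at 11.66, 9.94, 9.90, 9.58 and 9.85 after irradiation, so that irradiated array 1 lay among the controls. Its log2 difference was -1.44 (SE 0.40, adjusted p = 0.216), and without irradiated array 1 it was -1.80 (adjusted p = 0.0128).

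Partners of Nrf2 and further targets showed both directions. Of 13 partners and regulators, 7 were higher and 6 were lower, with a median of 0.01, and of 19 other targets, 10 were higher and 9 were lower, with a median of 0.0023. Aldh3a1, an aldehyde dehydrogenase chosen here after its values were seen, was at 13.79, 14.31, 14.85 and 14.25 in the controls and at 12.73, 13.26, 13.39, 13.22 and 13.30 after irradiation. The groups did not overlap, and the log2 difference was -1.12 (SE 0.20, adjusted p = 0.0572). Genes that supply NADPH, such as G6pdx (0.05), Pgd (-0.03), Taldo1 (0.0023) and Me1 (0.13), also named after their values were seen, had adjusted p of at least 0.654.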

How the data were processed

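Per the file headers and the labels, the authors deposited the Agilent Feature Extraction output of 9 single-channel arrays as intensity values without normalization between arrays, and a table of normalized intensity values. The labels name Cy5 as the dye, and the signal columns are those of the green channel. Control and outlier spots were left out, and a probe was kept where it exceeded its local background 1.4-fold on 4 or more arrays (39303 of 39429). Log2 processed signals were quantile normalized, and spots of a probe were averaged. Of the 39429 probes, 26055 were named through a RefSeq table of GRCm38.p6, and 25989 of these were among the probes kept. The spot numbers and positions deposited with the arrays were used to match the table, which gave a rank correlation of 1 on each array. Groups were compared with limma 3.58.1 (R 4.3.3), letting the variance follow intensity, with Benjamini-Hochberg adjustment over all probes and an adjusted p under 0.05. The procedure was tested on simulated data.

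The 39 members and all lists were chosen with earlier results of these data known. Members past the adjusted p, without overlap or with a log2 difference of at least 0.5 in size were set out by array. Of the other pathway genes, those past the adjusted p were to be named, or else the 3 that differed most. Alternatives were another background correction (normexp, offset 50), arrays scaled by their 75th percentile, the deposited normalized table, other filters, the mean of a gene's probes, each array left out, blocks, no intensity trend, array weights and an adjusted p under 0.01. Replicate numbers are shared by 4 arrays of each group. The deviations of arrays with the same number correlated between -0.167 and 0.0622, so the numbers were not taken to pair them.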

Additional observations from a re-analysis of the deposited data

Results flagged for a closer look

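Over the 39 members and 11 other pathway genes, 100 groups of 4 or 5 arrays were examined for an array whose gap to the nearest other exceeded Dixon's 95% critical value, and 9 had such an array, while chance gives about 5%. Among the control arrays, control array 4 stood apart for Txn1 (log2 intensity 14.82, others 15.29 to 15.33), Gstm1 (15.91, others 15.41 to 15.45) and Mt2 (14.09, others 14.50 to 14.58). Control array 2 was low for Gpx1 (15.87, others 16.17 to 16.22). Control array 3 was high for the epithelial metallothionein Mt4 (12.03, others 5.15 to 6.09), the array with the high skeletal muscle markers. Without it, the Mt4 log2 difference went from -1.74 to -0.17.

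Among the irradiated arrays, array 1 stood apart for Slc7a11 (4.94, others 6.21 to 6.31), Gsta2 (11.66, others 9.58 to 9.94) and Aldh3a1 (12.73, others 13.22 to 13.39). For the first 2 it lay on the side of the controls, and for Aldh3a1 it lay farthest from them. Irradiated array 3 was high for Maff (12.70, others 11.78 to 12.04), a small Maf protein that pairs with Nrf2. The cause of these values was not tested.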

How the results depend on the processing

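The alternatives were listed with the tests, except leaving out control array 3 and irradiated array 1 together, which was chosen after seeing the data. The files hold no mean signal, so normexp used the median. Mt2 kept its direction in all 22 alternatives and passed the threshold in 11 of them, with adjusted p from 0.00194 to 0.266 (0.0837 without the intensity trend). The number of members past the threshold was 0 at an adjusted p under 0.01 and also with a constant prior variance, 7 with the scan pair as a block, 11 with it as a random block, and 0 to 3 with each array left out, the 3 (Slc7a11, Mt1 and Mt2) without irradiated array 1. Probes past the threshold numbered 131, and 44 in the deposited table, 197 with the filter on all 9 arrays, 44 without the trend, 205 with array weights, 5 at an adjusted p under 0.01, 1105 with the scan pair block, 2899 with the random block and 5 to 476 with each array left out. Other pathway genes past the threshold numbered 1 in the deposited table, with the filter on all 9 arrays and with the mean of probes (Aldh3a1 each time), 1 without control array 3 and irradiated array 1 (Gsta2), 12 with the scan pair block, 24 with the random block and 0 to 5 with each array left out. Members without overlap numbered 2 in the deposited table (Mt1 and Mt2, with Txnrd1, Srxn1, Gstm1 and Gstm2 lost), 11 without control array 3 and irradiated array 1 and 6 to 11 with each array left out. The share over all genes, 5.14%, was taken only in the main processing with all 9 arrays. Fewer arrays separate more easily for any gene, so these counts cannot be read against that share. The median difference of the members was 0.028 to 0.101 with each array left out and 0.018 without control array 3 and irradiated array 1, against an SD of 0.034 over the control arrays. With the 75th percentile the median of all genes was -0.033.

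With the number in the array titles as a replicate block, which only shared numbers support, 0 members passed (9 at an unadjusted p under 0.05), 1 probe passed, and the Mt2 difference was 1.34 with an adjusted p of 0.266.

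Signs turned only for members with differences under their errors. With normexp, Gss was at 0.042 and Gstt1 at -0.030, and in the deposited table they were at 0.011 and -0.028. With the 75th percentile, Nqo1 was at -0.027 and Prdx6 at -0.019. Under the replicate block Gstt1 was at -0.012. With the scan pair block, Nqo1 was at -0.091, Gsr at -0.034, Gstt1 at -0.013 and Gsto1 at 0.013, and with the random block Nqo1 was at -0.038, Gsr at -0.012 and Gstt1 at -0.0016. Array weights gave -0.0075 for Gstt1. Without control array 3 and irradiated array 1, Nqo1 was at -0.082, Hmox1 at 0.23, Gsr at -0.094, Prdx3 at -0.028 and Gstt1 at -0.00034. With each array left out, the ranges were -0.31 to 0.066 for Keap1, -0.09 to 0.17 for Nqo1, -0.67 to 0.21 for Hmox1, -0.055 to 0.15 for Gclm, -0.10 to 0.13 for Gss, -0.04 to 0.10 for Gsr, -0.0076 to 0.13 for Prdx3, -0.0018 to 0.11 for Prdx6, -0.031 to 0.068 for Gstt1 and -0.18 to 0.01 for Gsto1. The cause was not tested. The intensity over background limits Slc7a11, the single member not flagged well above it on every array.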

Other observations

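Of 12 measured genes that handle iron and heme, 8 were higher and 4 were lower in irradiated lung (66.7% higher, against 51.9% of all genes), with a median log2 difference of 0.12. None passed the adjusted p (limma), and 4 had an unadjusted p under 0.05, all higher (33.3%, against 7.37% of all genes). Lcn2, the secreted lipocalin that binds bacterial iron carriers, was at 15.56, 14.93, 14.43 and 13.83 on control arrays 1 to 4 and at 15.41, 17.11, 16.66, 16.60 and 16.35 on irradiated arrays 1 to 5. Only irradiated array 1 overlapped the controls. Its log2 difference was 1.74 (SE 0.38, adjusted p = 0.112), and without irradiated array 1 it was 1.99 (adjusted p = 0.0299). The heme carrier hemopexin, Hpx, differed by 0.67 (SE 0.20) and the biliverdin reductase Blvra by 0.31 (SE 0.09), both chosen after their values were seen, with adjusted p of 0.250 and 0.257.

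Zinc handling genes other than the members were higher in 7 of 8 cases, with a median of 0.17, and the exception was Mt4. Selenoproteins and the genes that make them (7 of 12 higher, median 0.03), glutathione turnover (8 of 16 higher, median 0.0029) and other thiol enzymes (9 of 17 higher, median 0.06) showed no common direction, and none of their genes passed the adjusted p.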
